A study of Mus musculus with 4 samples.

Results

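The SET domain is the catalytic fold of most histone lysine methyltransferases, and Setd5, the gene deleted in this mouse, encodes a putative member of that family. The other members of the family were followed here across the cell types of the fetal cortex and between Setd5 genotypes. They were taken as the rows of the expression table for 39 listed gene symbols. Of these, 36 had a row among the 16600 genes of the table. The other 3 symbols, Kmt5a, Kmt5b and Kmt5c, are newer names of Setd8, Suv420h1 and Suv420h2, which were among the 36. Whsc1 and Whsc1l1 are likewise older names of Nsd2 and Nsd3.

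Single-cell (sc) RNA-Seq libraries came from the cortex of 2 Setd5+/+ and 2 Setd5+/- C57BL/6J fetuses at E18.5, each library from 1 fetus. Live cells had been sorted for the neuronal surface protein CD24 and against CD45, which marks blood-derived cells. The Setd5+/- allele carries a GFP cassette in every cell, and the Setd5+/+ animals had no treatment. The libraries are named by the prefix of their cells, WT3, WT6, Het5 and Het9.

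The libraries held 1445 to 1954 cells and 8205330 to 11742956 unique molecular identifiers (UMIs, tags that count each captured transcript molecule once). Across 6562 cells, counts ranged from 1258 to 14996 UMIs per cell. A level below is the mean, over the cells of a library, of the UMIs of a gene per 10000 UMIs of the cell. The tags sit near the 3′ end and count molecules, so levels of different genes were not divided by length. Setd5 itself averaged 1.18 and 1.07 in the Setd5+/+ libraries, against 0.540 and 0.586 in the Setd5+/- ones, a log2 difference of -0.89 (limma, Benjamini-Hochberg adjusted p = 0.00696). Xist was at 20.6 and 21.5 in the Setd5+/+ libraries and at 0.152 and 0.310 in the Setd5+/- libraries, where the Y-linked genes Ddx3y and Eif2s3y were detected (0.465 to 0.670). Genotype and sex therefore cannot be told apart in these libraries.

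Histone methyltransferases of this family differ in the residue they modify. The COMPASS-type enzymes (Setd1a, Setd1b, Kmt2a to Kmt2d) methylate H3K4 at promoters and enhancers, Ezh1 and Ezh2 are the alternative catalytic subunits of Polycomb repressive complex 2 and methylate H3K27, and Suv39h1, Suv39h2, Ehmt1, Ehmt2, Setdb1 and Setdb2 methylate H3K9 in silent chromatin. Setd2 and the NSD enzymes methylate H3K36 over gene bodies and elsewhere, and Setd8 places the first methyl group on H4K20, a step tied to the cell cycle, before Suv420h1 and Suv420h2 add more. In the developing cortex, radial glia and intermediate progenitors divide to give excitatory neurons, while GABAergic neurons arrive from the ventral forebrain.

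Cell types were set by the summed UMIs of marker genes, none of them a member. A cell needed at least 5 marker UMIs of its type (15 for radial glia) and few of the other types, and 5689 cells were assigned. Since the marker sums set the gates, the sums that follow describe the gates and are no check of them. The 8 excitatory markers summed to 33.8 to 37.7 counts per 10000 in excitatory neurons and to 0.619 to 1.14 in GABAergic neurons, and the 8 GABAergic markers to 38.2 to 43.0 in GABAergic and 0.333 to 0.570 in excitatory neurons. The 3 deep-layer markers were not particular to excitatory neurons, with sums of 12.3 to 13.2 in deep-layer and 12.8 to 21.6 in striatal neurons. Cd24a, the sorted marker, was at 21.2 ± 0.804 (SD, n = 4 libraries) in excitatory neurons but at 2.29 ± 0.224 in radial glia. Ptprc, which encodes CD45, was found in 82 cells. A set of 56 barcodes occurred in all 4 libraries, and 127 of the 133 melanocyte-gated and 81 of the 112 immune-gated cells carried one. No cell of the progenitor or neuron gates did, and the melanocyte and immune gates were not compared. The levels and genotype tests over all cells include the 224 cells with such a barcode. Without the 277 cells whose barcode occurred in more than 1 library, the count of members called between genotypes over all cells was still 0 by limma, as it was within the gates, with 1 of 31 members at an unadjusted p under 0.05 over all cells both with and without them.

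Ezh2 was the most abundant member, with 3.39, 3.26, 3.37 and 3.0 counts per 10000 over all cells of WT3, WT6, Het5 and Het9. The gene spans chr6:47530139-47595341 on the minus strand (GRCm38, GENCODE M21). Kmt2e, which encodes a chromatin reader related to the Kmt2 enzymes, followed with 2.96, 2.74, 3.01 and 3.01. The ranges of these leading members met, and both lay well above the next, Whsc1, which methylates H3K36 and was at 1.33 ± 0.0412 (SD, n = 4). Ezh2 and Kmt2e together gave 30.8% of the 78102 UMIs of the family. Kmt2a, Ehmt1 and Ash1l were also above 1 count per 10000, so 6 members passed that level. At the other end, Ezh1 (0.0798 ± 0.00635), Setd4 (0.0422), Setdb2 (0.0313), Prdm12 (0.0183) and Setmar (0.0169) were under 0.1 and were left out of the tests over all cells, for which 31 members remained. The 3′ ends of Kmt2e, Whsc1, Suv39h2, Suv39h1, Setdb1, Setd1b, Suv420h1 and Smyd2 are overlapped by a gene on the opposite strand (Srpk2, Nelfa, Dclre1c, Gm14820, Cers2, Gm26745, Gm16066 and Gm37422). That of Setd1a is overlapped by Gm49388 on the same strand. Whether the counting used strand is not stated, so these genes are uncertain. Neighbours in the order, such as Kmt2a (1.12), Ehmt1 (1.10) and Ash1l (1.02), overlapped between libraries.

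**Figure D1:**
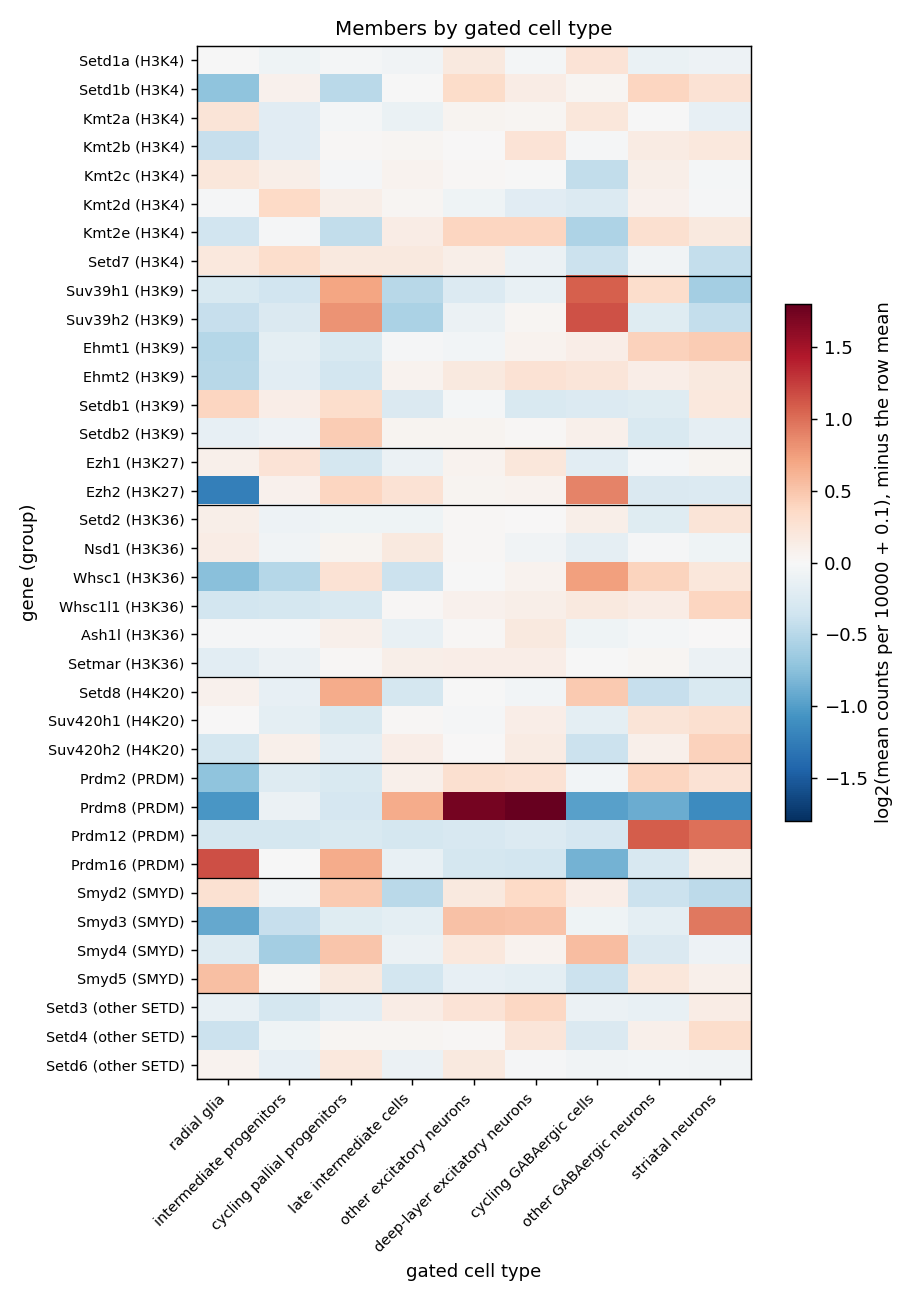
Heat map of the 36 members (rows, grouped by the residue they methylate or by subfamily) in 9 gated cell types (columns), coloured by log2(mean counts per 10000 + 0.1) over the 4 libraries minus the mean of the row. Ezh2, Suv39h1, Suv39h2 and Whsc1 are high in cycling GABAergic cells, Prdm8 in excitatory neurons, Prdm16 in radial glia and Prdm12 in the GABAergic neuron gates.

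Across 9 gated cell types, from radial glia to striatal neurons, Prdm8 varied most, over 3.17 on the log2 scale between the highest and the lowest type. Ezh2 followed with 2.12 and Prdm16 with 2.02, then Smyd3 (1.88), Suv39h2 (1.71), Suv39h1 (1.69) and Whsc1 (1.48). At the other extreme Ash1l (0.301), Setmar (0.310), Nsd1 (0.33), Setd6 (0.335) and Setd1a (0.365) moved little between types, where Setmar was too low for the scale to show much, with 0 in radial glia. Since the highest and lowest of 9 types were picked by their values, these ranges are a description and were not tested.

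Ezh2 gave the widest spread among progenitors. It was at 1.41, 1.34, 1.03 and 0.902 in radial glia of WT3, WT6, Het5 and Het9, at 3.0, 3.26, 3.26 and 2.68 in intermediate progenitors, and at 4.16, 3.84, 3.60 and 3.61 in cycling pallial progenitors. The gates did not overlap in any library, and radial glia held the lowest level of all 9 types. Cycling GABAergic cells held the highest, 5.43 ± 0.413 (SD, n = 4), and postmitotic excitatory neurons were at 2.98 ± 0.131. Ezh1, the paralog that is known to replace Ezh2 in resting cells, averaged between 0.0437 and 0.112 in the 9 types.

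Cycling cells were compared with resting progenitors to see which members follow division. Cycling pallial progenitors (489 cells, at least 5 UMIs of G2/M or S-phase markers) were set against non-cycling radial glia and intermediate progenitors (375 cells), with the library as a block. Of 28 members tested, 7 passed the threshold (limma, adjusted p under 0.05), against 24.4% of all 8125 genes, so the share of members (25%) was near that of all genes. In the cycling cells 6 were higher, where the background was 14.7%, and 1 was lower, where it was 9.71%. The median log2 difference was 0.05 over the members and 0.01 over all genes. Of the 6, Suv39h1 and Smyd4 were under 0.1 in resting cells and passed the filter on low values only through the cycling ones, so their part in this count is no support.

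The members that rose in cycling cells share no single mark, and most other enzymes for the same marks did not pass the test, such as Ehmt1 (log2 difference 0.03), Ehmt2 (-0.06) and Setdb1 (0.12) for H3K9, Setd2 (-0.03), Nsd1 (0.04) and Whsc1l1 (0.05) for H3K36 and Suv420h1 (-0.17) and Suv420h2 (-0.06) for H4K20. Suv39h2, which trimethylates H3K9 in heterochromatin, was at 0.301, 0.512, 0.559 and 0.450 in cycling cells of WT3, WT6, Het5 and Het9 and at 0.102, 0.119, 0.184 and 0.196 in resting ones, a log2 difference of 1.14 (standard error 0.186, adjusted p = 1.79e-05 by limma). Its X-linked paralog Suv39h1 went from 0.112, 0.127, 0.0691 and 0.0874 in resting to 0.268, 0.336, 0.323 and 0.277 in cycling cells (log2 difference 1.02). Both groups were clear of each other for both genes. Whsc1 rose by 0.86 (1.47 ± 0.148 against 0.762 ± 0.0841, SD, n = 4) and Setd8 by 0.71 (1.15 ± 0.132 against 0.663 ± 0.0397), with adjusted p of 2.09e-06 and 8.55e-05 by limma. Ezh2 rose by 0.70 (3.80 ± 0.265 against 2.3 ± 0.0718, adjusted p = 1.10e-07 by limma). Smyd4 was at 0.205 against 0.0594 ± 0.0361, a log2 difference of 0.96. In the fit of all genes with no filter on low values, adjusted p by limma was 0.00281 for Suv39h1 and 0.00941 for Smyd4. For each of these 6 members the cycling value was the higher in 4 of 4 libraries.

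Kmt2e was the member that fell, by 0.29 on the log2 scale, from 2.55 ± 0.105 to 2.07 ± 0.113 (adjusted p = 0.0204 by limma). This call was lost without Het5 (adjusted p = 0.0997 by limma) or without Het9 (0.0634). The mix of resting cells bore on the sizes, since Ezh2 differed so widely between radial glia and intermediate progenitors. Against intermediate progenitors alone, a comparison added after the data were seen, the log2 differences were 0.31 for Ezh2 and 1.06, 1.05, 0.81 and 0.78 for Suv39h2, Suv39h1, Setd8 and Whsc1. Against radial glia alone they were 1.64 for Ezh2 and 1.40, 1.03, 0.58 and 1.01 for the others, in the same order. These 5 passed the threshold in both, and against intermediate progenitors Smyd4 (1.12), Prdm16 (0.70) and Kmt2e (-0.42) passed as well. The resulting 8 of 28 and 5 of 28 members were near the shares of all genes called, 32.7% against intermediate progenitors and 14.7% against radial glia. Suv39h1 in intermediate progenitors (0.0940) and Smyd4 in both resting gates (0.0411 and 0.0848) were again under 0.1, with the same limit. Kmt2e (-0.09) and Smyd4 (0.81, adjusted p = 0.0835 by limma) did not against radial glia. Cycling cells also held more UMIs, with a median of 7505 against 6017 in the resting progenitors, and the part of this depth in the results was not tested.

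**Figure D2:**
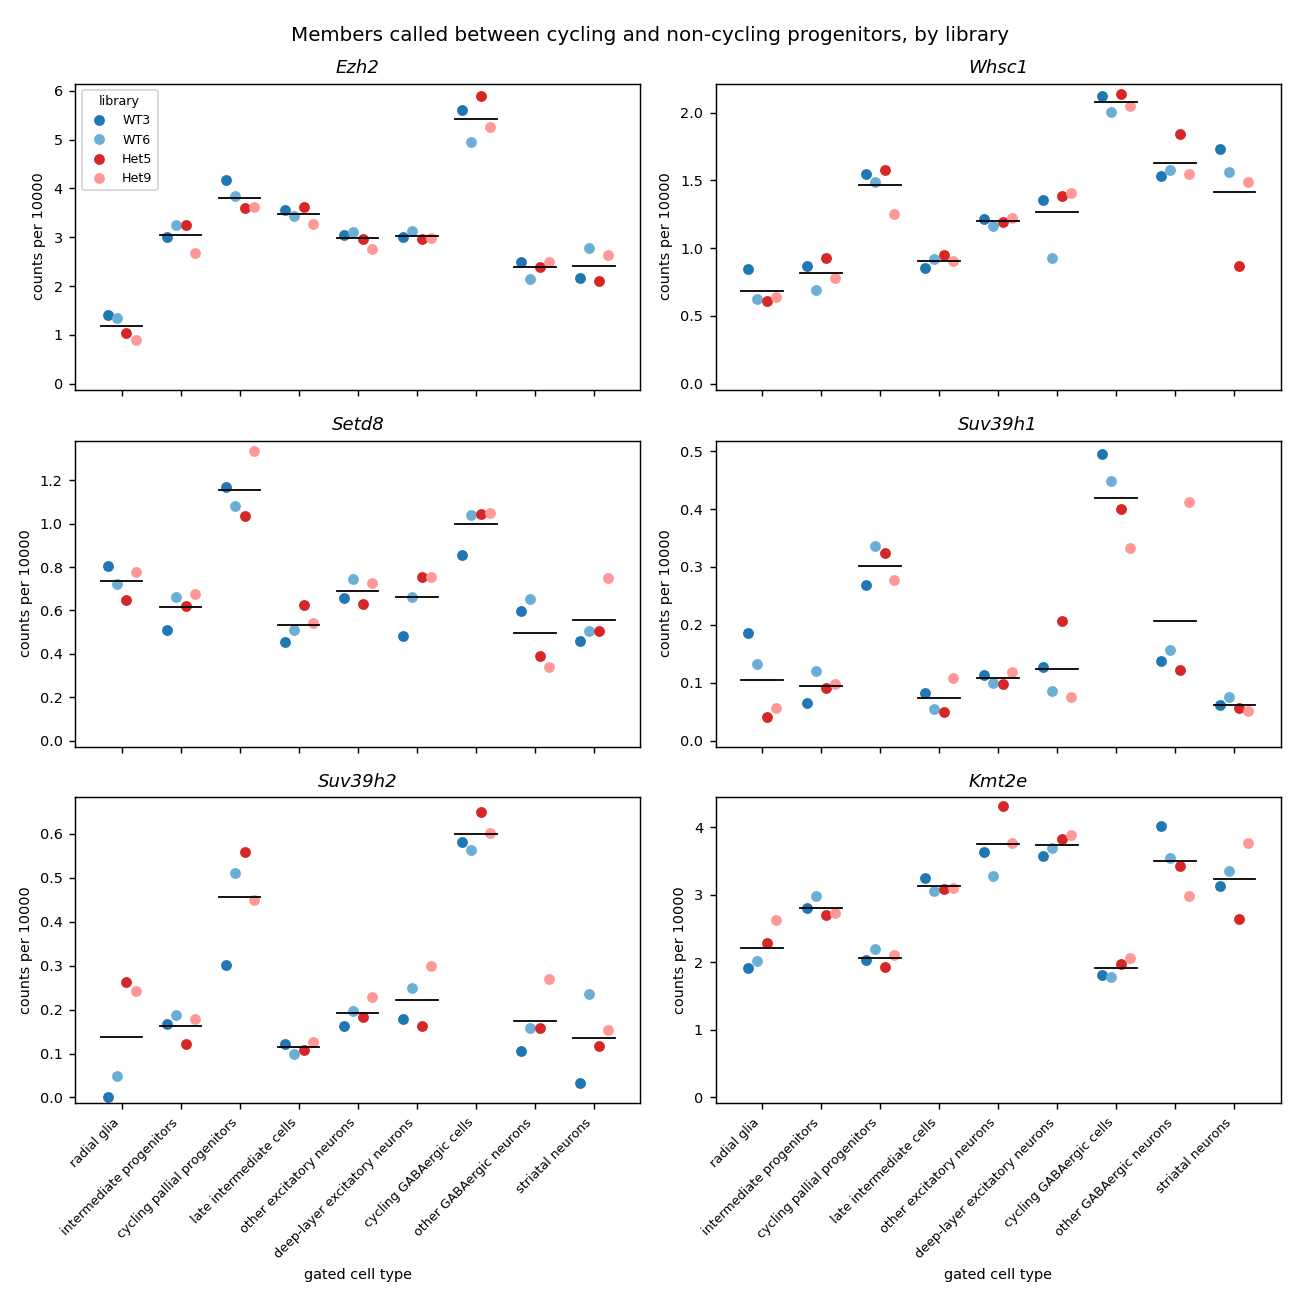
Levels of 6 members in counts per 10000 (y axes, linear) in the 9 gated cell types (x axes), 1 point per library and a bar at the mean of the 4 libraries. Ezh2, Setd8, Suv39h1 and Suv39h2 have their highest means in the 2 cycling gates and Whsc1 in cycling GABAergic cells, with other GABAergic neurons second, whereas Kmt2e has its lowest means in the cycling gates and its highest in excitatory neurons.

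Partner genes of these enzymes were read from fixed lists. Of 7 tested subunits and cofactors of Polycomb repressive complex 2, 4 were higher in cycling progenitors, namely the histone chaperones Rbbp7 (log2 difference 1.07) and Rbbp4 (0.47) and the core subunits Eed (0.65) and Suz12 (0.62). Of 12 COMPASS subunits, 3 were higher (Paxip1, 1.18; Psip1, 0.76; Dpy30, 0.64). Of 7 partners of H3K9 methylation, 4 were higher, the heterochromatin proteins Cbx1, Cbx3 and Cbx5 and the corepressor Trim28 (0.43 to 0.58). In none of these lists was a gene lower by this test. Of 18 demethylases, which remove such marks, 6 were lower (Kdm7a by -1.13 and Kdm5b by -0.80), 0 were higher and the rest did not pass by limma. The shares of all genes were 14.7% higher and 9.71% lower, and no list was tested as a set. A list of other methyltransferase and PRDM genes that are not members had 3 tested, of which 0 passed by limma. The medians of the other 4 lists were 0.47, 0.25, 0.43 and -0.23 beside 0.01 for all genes.

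Genes of the division program often carry a binding motif of E2F factors at the promoter, so the promoters of the members were searched for it. The letters were TTTCCCGC, TTTCGCGC, TTTGCCGC and TTTGGCGC on both strands, in the 300 bases from 250 before to 50 after each start in RefSeq (GRCm38.p6). For 27 of the 36 members 33 such promoters were given, and 3 of these held the motif (9.09%), beside 2.26% of all 32851 promoters. The second promoter of Suv39h1 did not hold it. The 3 are shown because 2 of the 3, Ezh2 and Suv39h1, rose in cycling progenitors and the other, Suv420h2, is the contrast. The 30 bases around each motif follow, 5′ to 3′ on the strand of the gene, with the motif in capitals.
Ezh2 (chr6:47595009-47595038, minus strand, motif from 3 bases after the start base): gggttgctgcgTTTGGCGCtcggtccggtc
Suv39h1 (chrX:8074407-8074436, minus strand, motif 64 bases before the start): ggaaggccggcGCGGCAAAcgtgggggccg
Suv420h2 (chr7:4740011-4740040, plus strand, motif 105 bases before the start): ggccagaagagGCGGGAAAaagagagcaat
Suv420h2, which adds further methyl groups to H4K20, did not pass the test between cycling and resting progenitors. The searched promoters of Setd8, Suv39h2 and Smyd4 did not hold these letters, and Whsc1 was not among the promoters searched. A match is a description of the sequence and does not show that a factor binds there.

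The phases of the cycle were then compared within the cycling cells. Cells gated by S-phase markers with at most 2 UMIs of G2/M markers (345 cells) were set against G2/M-gated cells (1077 cells). The G2/M gate set no limit on S-phase markers. These summed to 13.7 to 16.3 counts per 10000 in G2/M-gated and 20.3 to 21.9 in S-gated cells, so the gates differ mainly in G2/M markers. S-gated cells were also shallower, with a median of 6251 UMIs against 7122, and the part of depth was not tested. Of 30 members tested, 9 passed the threshold against 23.4% of 7864 genes. In S-gated cells 7 were lower (background 11.2%) and 2 higher (background 12.3%). Ezh2 was at 4.11, 3.91, 4.06 and 3.89 in S-gated and 5.56, 4.79, 5.24 and 5.0 in G2/M-gated cells of WT3, WT6, Het5 and Het9, lower in S by 0.36 on the log2 scale in 4 of 4 libraries (adjusted p = 1.06e-05 by limma). Whsc1 was lower by -0.47 (1.43 ± 0.155 against 2.02 ± 0.0821, adjusted p = 5.85e-05 by limma). The H3K36 trimethylase Setd2 (-0.59), Suv39h1 (-0.59), Suv39h2 (-0.52), Setd1b (-0.49) and the H3K9 dimethylase Ehmt2 (-0.38) were lower too, Setd1b in 3 of 4 libraries and the others in all 4, and Smyd5 (0.59) and Smyd2 (0.52) were higher in S. Setd8, whose protein is known to be degraded in S phase, did not pass the test (0.895 ± 0.249 against 1.09 ± 0.0473).

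Among partner genes, 1 of 7 Polycomb (Suz12, -0.41), 1 of 12 COMPASS (Psip1, -0.47) and 3 of 7 H3K9 partners (Atf7ip, -0.46; Cbx1, -0.29; Cbx3, -0.26) were lower in S-gated cells, and 1 of 16 demethylases (Kdm7a, 0.60) was higher, against the same background shares. Of the 9 calls, those of Ezh2, Whsc1 and Setd2 held when any library was left out. Adjusted p by limma was 0.0529 for Suv39h1 without Het5, 0.244 for Suv39h2 without WT6, and 0.10 and 0.156 for Setd1b without WT3 and without Het9. It was 0.059 and 0.0961 for Ehmt2 without Het5 and without Het9, 0.094 and 0.108 for Smyd2 without WT3 and without Het5, and 0.0649 and 0.132 for Smyd5 without WT6 and without Het5. GABAergic cells made up 52.2% of the S-gated and 69.9% of the G2/M-gated cells. Within cycling GABAergic cells, a split added after the data were seen, 4 of 28 members passed (Setd2, -0.68; Suv39h2, -0.67; Whsc1, -0.47; Ezh2, -0.29), a share near the 14.1% of all genes. Within cycling pallial cells none did by limma, beside 6.66% of all genes, where the log2 differences were -0.27 for Ezh2, -0.32 for Whsc1, -0.44 for Setd2 and -0.14 for Suv39h2.

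Resting progenitors were next compared with the excitatory neurons that derive from them (375 and 1924 cells). Of 32 members tested, 14 passed the threshold, beside a background of 50%, so the share of members was not above that of all genes. Progenitors were higher for 2 members (background 23.6%) and lower for 12 (background 26.5%). Of the 12, Prdm8, Smyd3 and Smyd4 were under 0.1 in progenitors and passed the filter on low values only through the neurons, so they do not support the count.

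Prdm8 (chr5:98167198-98188991, plus strand), a PR-domain factor known to shape neuronal morphology, was at 0.0205, 0.0532, 0.0415 and 0.165 in progenitors of WT3, WT6, Het5 and Het9 and at 0.50, 0.758, 0.709 and 0.711 in excitatory neurons. Every neuron value lay above every progenitor value, and the log2 difference of progenitors against neurons was -2.23 (standard error 0.184, adjusted p = 5.62e-05 by limma with no filter on low values). Late intermediate cells, which carry both intermediate progenitor and neuron markers, lay between (0.246 ± 0.0339, SD, n = 4), and deep-layer neurons were at 0.803 ± 0.123 beside 0.624 ± 0.129 in the other excitatory neurons, with overlap. Prdm16 (chr4:154316125-154636873, minus strand), a PR-domain regulator of radial glia, ran the opposite way, with 0.460, 0.327, 0.437 and 0.200 in progenitors and 0.211, 0.0974, 0.139 and 0.137 in neurons (log2 difference 0.87, adjusted p = 0.000111 by limma). It was higher in progenitors in 4 of 4 libraries, although Het9 progenitors lay below WT3 neurons, and radial glia held 0.588 ± 0.212 beside 0.204 ± 0.105 in intermediate progenitors.

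Among the others that were lower in progenitors, Prdm2 fell by 0.73 on the log2 scale (0.239 ± 0.0987 against 0.442 ± 0.0409). Smyd3 was at 0.0657 ± 0.0149 against 0.254 ± 0.0237 (log2 difference -1.10) and Smyd4 at 0.0594 against 0.142 (-0.63), with adjusted p of 0.00157 and 0.0208 by limma in the fit with no filter. Kmt2e was at 2.46, 2.51, 2.52 and 2.70 in progenitors and 3.63, 3.40, 4.22 and 3.79 in neurons (log2 difference -0.54, adjusted p = 5.78e-07 by limma). The remaining calls were Whsc1 (-0.60), Setd3, an actin histidine methyltransferase (-0.50), Ehmt2 (-0.50), Setd1b (-0.50), Whsc1l1 (-0.42), Ezh2 (-0.36) and Ehmt1 (-0.28). For Ezh2 the pooled value comes from radial glia (1.17 ± 0.243), since intermediate progenitors (3.05 ± 0.272) overlapped excitatory neurons (2.98 ± 0.131). Smyd5 was the second member higher in progenitors (0.41). These include enzymes for marks of active and of silent chromatin alike. Leaving out 1 library ended the call of Ehmt1 (adjusted p by limma 0.132 without WT3, 0.184 without Het5), Setd1b (0.0799 without Het5) and Smyd5 (0.0667, 0.104, 0.183 and 0.0567 without WT3, WT6, Het5 and Het9). Of 18 demethylases tested, 7 were lower in progenitors (Kdm2b, -0.99; Kdm1b, -0.87) and Kdm7a was higher (0.72). Of 8 Polycomb partners 4 were lower (Phf1, -0.92; Mtf2, -0.84) and Aebp2 was higher (0.40). The COMPASS list had 3 of 12 lower and the H3K9 list 2 of 7 lower and Cbx5 higher. Among all genes 26.5% were lower and 23.6% higher, so that the COMPASS and H3K9 counts were near the background.

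**Figure D3:**
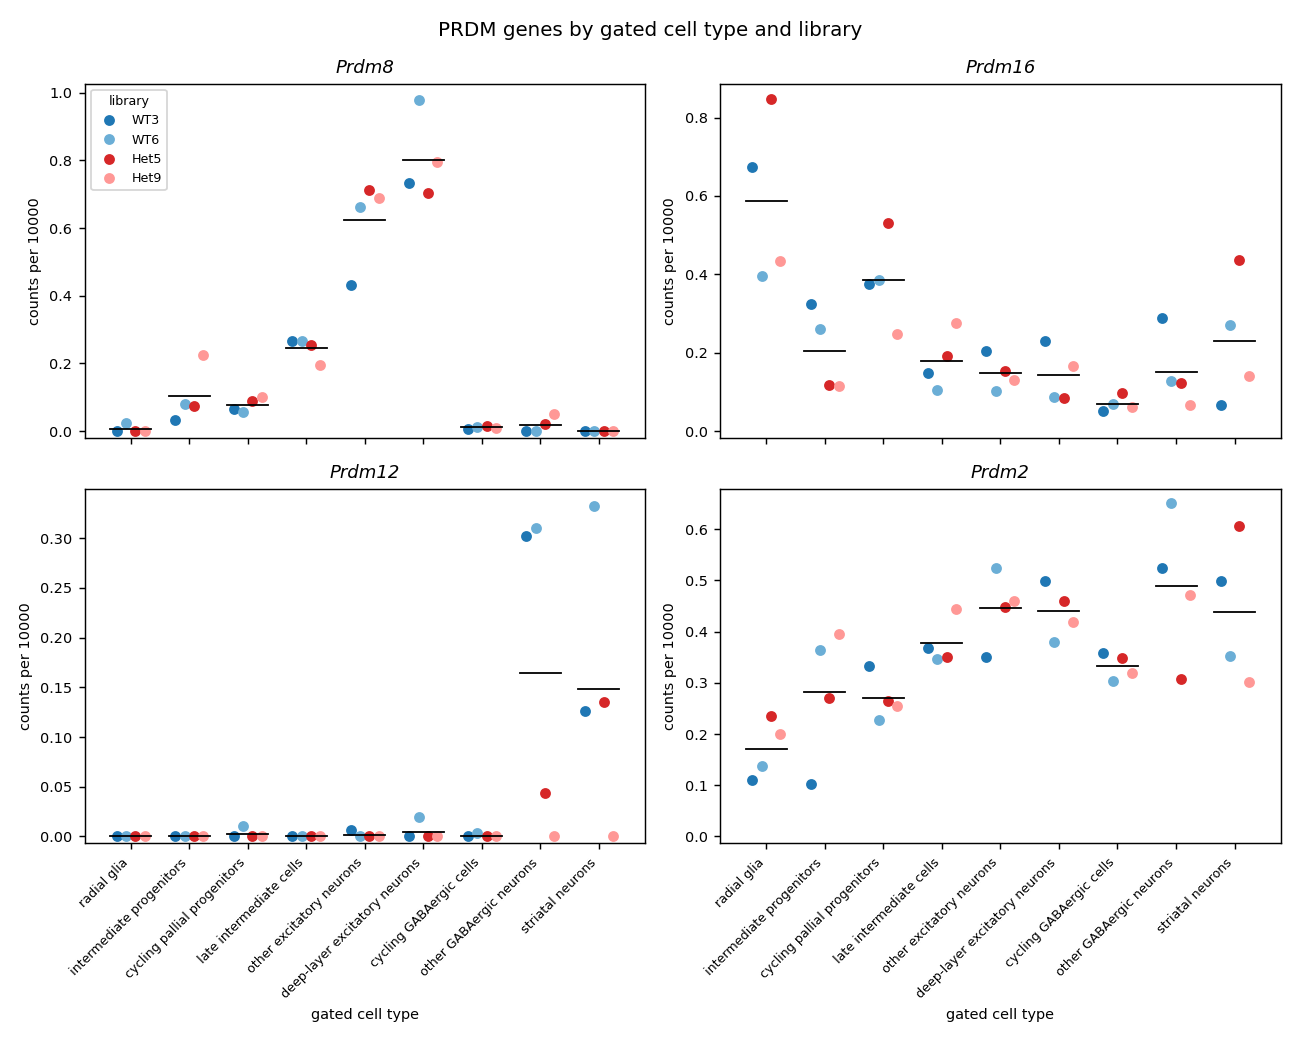
Levels of 4 PRDM members in counts per 10000 (y axes, linear) in the 9 gated cell types (x axes), 1 point per library and a bar at the mean of the 4 libraries. Prdm8 is high in excitatory neurons, Prdm16 in radial glia, and Prdm12 in the striatal and other GABAergic gates, where Het9 is at 0.

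GABAergic and excitatory neurons were compared as different lineages (732 and 1924 cells). The classes may also differ in maturity, which was not measured. Of 31 members tested, 7 passed the threshold against 26.5% of 7777 genes. GABAergic neurons were lower for 5 (background 15.2%) and higher for 2 (background 11.3%). Of the 5, Prdm8 and Smyd2 were under 0.1 in GABAergic neurons and passed the filter on low values only through the excitatory ones, so they do not support the count. Prdm8 had the widest difference of the family, at 0, 0, 0.0115 and 0.0290 in GABAergic neurons of WT3, WT6, Het5 and Het9, a log2 difference of -2.80 from excitatory neurons (standard error 0.162, adjusted p = 7.89e-06 by limma with no filter on low values). The 183 striatal-gated cells held 0 Prdm8 UMIs, which allows up to 0.0384 counts per 10000 (3 counts over their UMIs, counting error only). Ehmt1, an H3K9 dimethylase, was at 1.61, 1.57, 1.24 and 1.39 in GABAergic and 1.19, 1.02, 1.15 and 0.997 in excitatory neurons (log2 difference 0.38, adjusted p = 0.00277 by limma). Whsc1 was higher as well (0.29), and Setd8 (-0.43), Setd3 (-0.36) and Ezh2 (-0.25) were lower. Smyd2 was at 0.0991 against 0.176 (log2 difference -0.46) and did not pass with no filter (adjusted p = 0.162 by limma).

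All 7 differences had the same direction in 4 of 4 libraries. Without 1 library the adjusted p by limma passed 0.05 for Whsc1 (0.0628 without WT3, 0.0939 without WT6), Setd8 (0.0531 without Het5), Setd3 (0.051, 0.106 and 0.102 without WT3, WT6 and Het5) and Smyd2 (0.231, 0.0619 and 0.203 without WT6, Het5 and Het9). GABAergic neurons were also shallower, with a median of 3797 UMIs against 5346.5, and the part of depth in these differences was not tested. Of the partner lists, the demethylases gave 3 of 19 lower and Kdm7a higher (0.81), COMPASS gave Rbbp5 higher (0.50) and Bod1l lower (-0.32), and the Polycomb and H3K9 lists gave 0 calls by limma, against the background shares of 15.2% lower and 11.3% higher.

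Whether the family moves when Setd5 is reduced was asked first over all cells. None of the 31 tested members passed the threshold by limma, beside 0.086% of 8137 genes, and at an unadjusted p under 0.05 there was 1 member (3.23%) and 4.34% of all genes. The summed level of the 36 members was 20.5 and 19.7 in the Setd5+/+ and 20.8 and 20.2 in the Setd5+/- libraries (exact two-sided permutation p = 0.667, where 2 against 2 libraries cannot give less than 0.333). Every 95% interval lay within 0.5 of 0 on the log2 scale, from -0.37 at the lowest to 0.48 at the highest. A log2 difference over all cells as large as that of Setd5 was therefore outside the interval of each tested member. For members of low level, the same change in ratio gives a smaller log2 difference on this scale. In bulk means such as these, fewer cells of a type and less RNA per cell cannot be told apart.

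The 5 members with the widest differences over all cells were Prdm8, Kmt2d, Nsd1, Suv39h1 and Suv39h2. Prdm8 was at 0.229 and 0.242 in the Setd5+/+ and 0.279 and 0.331 in the Setd5+/- libraries (log2 difference 0.27, standard error 0.0901, unadjusted p = 0.0194, adjusted p = 0.994 by limma). The enhancer H3K4 methyltransferase Kmt2d was at 0.193 and 0.189 against 0.178 and 0.147 (-0.15), and the H3K36 methyltransferase Nsd1 at 0.913 and 0.860 against 1.04 and 0.941 (0.14). Suv39h1 was at 0.199 and 0.189 against 0.169 and 0.166 (-0.13), and Suv39h2 at 0.241 and 0.255 against 0.286 and 0.270 (0.12). The genotypes did not overlap for these 5, which were among 15 of 31 members without overlap (48.4%), beside 32% of all genes. The median log2 difference was 0.03 over the members and -0.00 over all genes. Excitatory neurons, where Prdm8 is high, made up 32.3% and 22.5% of the Setd5+/+ and 29.0% and 35.8% of the Setd5+/- cells.

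**Figure D4:**
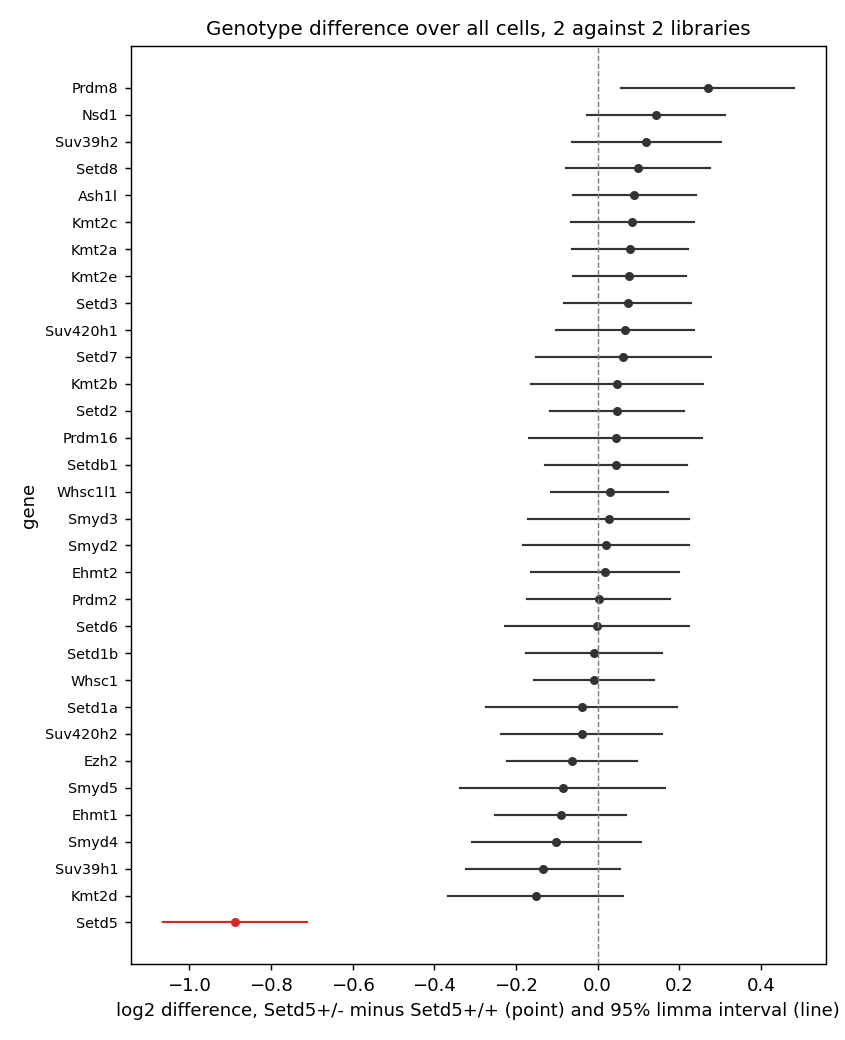
Log2 difference of Setd5+/- against Setd5+/+ libraries over all cells (x axis) for the 31 tested members and Setd5 (y axis), with points for the estimates and lines for 95% intervals from limma. All 31 members lie between -0.15 and 0.27, whereas Setd5, in red, lies at -0.89.

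Within each of the 9 gates the count of members called by limma was also 0. The share of all genes called was 0.135% in cycling pallial progenitors, 0.107% in cycling GABAergic cells, 0.0861% in radial glia, 0.0785% in intermediate progenitors and 0.119% in late intermediate cells. It was 0.0516% in deep-layer and 0.117% in other excitatory neurons, 0.0533% in striatal neurons and 0.0922% in other GABAergic neurons. At an unadjusted p under 0.05 there were 0 to 3 members per gate (0 to 9.68% of those tested), beside 4.27 to 5.44% of all genes. Setd5 itself passed the threshold in 4 of these gates, among them cycling pallial progenitors (-1.05) and late intermediate cells (-1.12). It did not in the other 5, where its log2 difference was -1.21 in radial glia, -0.90 in intermediate progenitors, -0.79 in deep-layer neurons, -0.58 in striatal neurons and -0.54 in other GABAergic neurons (adjusted p from 0.376 to 0.982 by limma). Intervals of the members lay within 1 of 0 on the log2 scale for 27 of 27 members in cycling GABAergic and in late intermediate cells and for 31 of 31 in other excitatory neurons. They did so for 9 of 27 in radial glia and in striatal neurons, the smallest of the 9 gates. A log2 difference of 1 or -1 therefore lay within the interval of most members there. Because 0.1 was added to each mean, a change of 2 times is smaller than 1 on this scale for members of low level. Intervals within 1 therefore do not exclude a change of 2 times for such members in any gate.

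Among progenitors, the 5 widest differences in cycling pallial cells were Smyd5 (-0.56), the enhancer methyltransferase Kmt2c (0.38), Kmt2b (0.37), Setd7 (0.30) and Kmt2d (-0.29). In cycling GABAergic cells they were Suv39h1 (-0.30), Suv420h2 (-0.29), Whsc1l1 (0.25), Kmt2a (0.23) and Setd2 (0.18). In radial glia they were Suv39h2 (1.54), the H3K9 methyltransferase Setdb1 (1.32), Smyd2 (-1.08), Suv39h1 (-0.80) and Suv420h2 (0.68). Suv39h2 was at 0 and 0.0477 in the Setd5+/+ radial glia and passed the filter on low values only through the Setd5+/- libraries (0.264 and 0.242), while Smyd2 and Suv39h1, with Setd5+/- means of 0.0920 and 0.0484, passed only through the Setd5+/+ ones. The unadjusted p under 0.05 of Suv39h2 in this gate therefore supports no difference. Setdb1 in radial glia was at 0.0681 and 0.456 in the Setd5+/+ and 0.706 and 0.625 in the Setd5+/- libraries (adjusted p = 0.792 by limma). This gate held as few as 21 cells per library. In intermediate progenitors the widest were Ash1l (0.86), Prdm16 (-0.85), Smyd5 (-0.72), Prdm8 (0.61) and Kmt2d (-0.54). Ash1l, an H3K36 methyltransferase, was at 0.745 and 0.612 against 1.125 and 1.52, with no overlap (unadjusted p = 0.00151, adjusted p = 0.601 by limma). In late intermediate cells they were Prdm16 (0.56), Setd8 (0.23), Ash1l (0.23), Whsc1l1 (-0.21) and Ehmt2 (-0.21), so Prdm16 had opposite signs in the intermediate and late intermediate gates.

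In deep-layer neurons the widest differences were Smyd5 (-0.59), Setd6 (-0.45), Smyd3 (-0.40), Setd8 (0.36) and Ehmt2 (0.34). In the other excitatory neurons they were Prdm8 (0.33), Kmt2c (0.27), Suv420h1 (0.26), Setd1a (-0.23) and Kmt2e (0.22). Prdm8 there was at 0.433 and 0.663 against 0.711 and 0.690, so WT3 alone stood apart. In striatal neurons they were Setdb1 (1.03), Prdm12 (-1.03), Smyd3 (0.81), Smyd4 (-0.72) and Setd6 (-0.63), and in the other GABAergic neurons Prdm12 (-1.76), Smyd5 (0.86), Kmt2d (-0.79), Setd8 (-0.65) and Suv420h2 (-0.65). The same limit holds, with 1 genotype under 0.1, for Prdm8 in intermediate progenitors, Smyd5 and Setd6 in deep-layer neurons, Prdm12, Setd6 and Smyd4 in striatal neurons and Prdm12 in other GABAergic neurons. Among the partner lists, the genes called between genotypes in any of these 10 comparisons were the Y-linked demethylases Kdm5d and Uty.

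The genotype difference was also compared between cell types. In all progenitors against all neurons, 0 of 31 members passed by limma, beside 0.0248% of 8071 genes. Over the 36 pairs of the 9 gates, added after the data were seen, 0 members passed, beside 0 to 0.142% of all genes per pair, and the lowest adjusted p by limma was 0.459 (Ash1l in intermediate progenitors against other excitatory neurons). The 4 contrasts between cell types did not differ between genotypes for any member by limma (lowest adjusted p = 0.976), beside 0 to 0.129% of all genes.

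Prdm12 (chr2:31640037-31655795, plus strand), a PR-domain factor known from sensory and spinal neurons, was detected in few cells. Its UMIs numbered 20, 48, 4 and 0 in WT3, WT6, Het5 and Het9, from 12, 22, 4 and 0 cells. Of these cells 30 were GABAergic neurons, which is 4.10% of that class, beside 2 excitatory neurons or 0.104%, although excitatory neurons were deeper. In the other GABAergic neurons Prdm12 was at 0.302 and 0.310 against 0.0435 and 0 (log2 difference -1.76, adjusted p = 0.213 by limma, and 0.00635 without Het5, which leaves the library at 0 as the only Setd5+/- one). Prdm12 passed the filter on low values in this gate only through the Setd5+/+ libraries, so these p-values do not support a difference. In striatal neurons the values were 0.127 and 0.333 against 0.135 and 0, with overlap.

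The cells with Prdm12 are described here by genes chosen after their values were seen. The 30 GABAergic neurons with a Prdm12 UMI averaged 14.3 counts per 10000 of Zic1, 6.26 of Zic4 and 9.79 of Fgf15, beside 1.42, 0.684 and 0.301 in the other 702 GABAergic neurons, and they held 0 of the interneuron marker Lhx6 beside 1.55. Zic1 and Zic4 encode transcription factors of the septum and other midline territories. GABAergic neurons with at least 2 UMIs of Zic1 and Zic4 together held 29 of the 30 Prdm12 cells. They numbered 37 of 165 (22.4%) in WT3, 58 of 294 (19.7%) in WT6, 18 of 131 (13.7%) in Het5 and 1 of 142 (0.704%) in Het9. These shares are a description, since the set is defined by Zic UMIs and its overlap with the Prdm12 cells was seen before it was chosen. Within them the summed Prdm12 UMIs per 10000 were 0.731 (95% exact Poisson interval 0.418 to 1.19), 1.13 (0.799 to 1.56) and 0.401 (0.109 to 1.03) in WT3, WT6 and Het5, and the interval of Het5 overlapped those of WT3 and of WT6. In Het9 there was 1 such cell, with 0 UMIs of Prdm12, too few to compare. Prdm16 in the Zic-positive GABAergic neurons was at 0.708, 0.670 and 0.707 counts per 10000 in WT3, WT6 and Het5, beside 0, 0.0373 and 0.0638 in GABAergic neurons without Zic UMIs. The intervals cover counting error only. Het9 held fewer Zic-positive cells, and whether Prdm12 within them was lower as well cannot be told. Since Zic UMIs define the set, fewer such cells and less Zic per cell cannot be told apart either.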

How the data were processed

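Per the submitters' processing notes, Cell Ranger 2.1 and Seurat 2.3.0 were used with mm10 on 10x Genomics 3′ v2 libraries. The authors deposited 1 table of natural log values, where each value is ln(1 + UMIs scaled to 10000 per cell). For the annotation, strand setting and cell filters, nothing was stated in these sources. Undoing the log gave whole UMIs for 14848520 of 14848520 values above 0 (tolerance 0.02). Column prefixes gave each cell's library and genotype but no replicate number.

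Gates needed 5 marker UMIs (15 for radial glia, 50 for erythroid) and at most 2 of excluded lists. Scrublet (scanpy 1.11.5) called 64 cells doublets, which were kept. Library means were tested with limma 3.58.1 (R 4.3.3, variance trend on) on log2(mean + 0.1) for all genes with a mean of at least 0.1, and p-values were adjusted by Benjamini-Hochberg and called under 0.05. Differences on this scale understate changes of low genes. Genotypes were compared over all cells and in 9 gates with at least 20 cells per library, which left out migrating interneurons (19 in Het9). Cell types were compared with the library as a block. No count model was fitted. The steps were tested on simulated data.

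The members named were those called, the 5 widest per genotype comparison, and the ends of the level order. Members and lists were chosen with earlier results of these data known. The Prdm12 cells, Zic genes, gate pairs and within-type splits were added after values were seen. Alternatives were pseudocounts 0.01 and 1, no filter, each library left out, summed UMIs, shared barcodes or doublets removed, gates with higher UMI minimums, and 1 genotype alone.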

Additional observations from a re-analysis of the deposited data

How the results depend on the processing

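No paired analysis was possible because the columns of the table carry no replicate number that could be tied to the labels. The count of members called between genotypes over all cells was 0 under every alternative run. Within the 9 gates it was 0 under every alternative but 1, and leaving out each library gave 0 to 1, the 1 being Prdm12 in other GABAergic neurons without Het5, which entered the fit only through the Setd5+/+ libraries. Between progenitors and neurons in their genotype difference it was 0 throughout. With the Setd5+/+ libraries alone, 9 in place of 14 members passed between resting progenitors and excitatory neurons, and with the Setd5+/- libraries alone 2 in place of 7 passed between GABAergic and excitatory neurons. Between S and G2/M gates, 9 members passed, but 5 with no filter on low values, 2 in the Setd5+/- libraries alone, 4 in GABAergic cells alone and 0 in pallial cells alone, and leaving out each library gave 5 to 9. Fewer libraries or cells entered most of these fits. In the fits that left out a library the lone library of its genotype was assumed to vary like the others.

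Ezh2, Setd8, Suv39h2 and Whsc1 kept their call between cycling and resting progenitors under all 15 alternatives. The alternative gates (10 marker UMIs, 30 for radial glia) redefined the types, since a higher minimum also loosens what keeps a cell out: late intermediate cells went from 805 to 212, intermediate progenitors from 222 to 433 and excitatory neurons from 1924 to 2022. They reversed 3 genotype differences that were not called, Setd2 in cycling GABAergic cells (-0.00114) and Setd8 (-0.15) and Ash1l (-0.0384) in late intermediate cells. They left under 20 cells in a library for radial glia and striatal neurons, where they were not run. The call of a member between cell types was kept in 414 and lost in 95 of the refits. The count of all genes called between genotypes ran from 6 to 41 over all cells (main 7), 7 to 40 in cycling pallial progenitors (11), 6 to 61 in cycling GABAergic cells (8), 3 to 11 in radial glia (7), 1 to 13 in intermediate progenitors (6), 5 to 60 in late intermediate cells (9), 3 to 14 in deep-layer neurons (4), 7 to 32 in other excitatory neurons (9), 1 to 75 in striatal neurons (4), 3 to 54 in other GABAergic neurons (7) and 0 to 46 for progenitors against neurons (2). Between cell types it ran from 990 to 2919 (1986), 2784 to 4687 (4016), 1157 to 2212 (2061) and 1061 to 1898 (1842), in the order of the text for cycling, excitatory, GABAergic and S-phase comparisons. These ranges leave out the splits within cell types that were added later. There the S-phase comparison called 1057 genes in GABAergic cells alone and 543 in pallial cells alone. The members under 0.1 counts per 10000 and the gates with few cells rest on few UMIs, and the part of depth in their results was not tested.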

Other observations

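Among the gates that were not compared, Prdm16 was higher in melanocyte-gated cells than in any progenitor or neuron gate, with 1.16, 1.44, 1.32 and 1.86 counts per 10000 in WT3, WT6, Het5 and Het9. Of these 133 cells, 127 carried 1 of the 56 barcodes found in all 4 libraries, so the 4 values may not be independent. Prdm8 was at 0.209 ± 0.0903 (SD, n = 4) in Cajal-Retzius cells, early excitatory neurons of the cortical margin, and at 0 in migrating interneurons of every library.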
